A study of Mus musculus with 14 samples.

Results

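The data cover 10 genes that act when myoblasts adhere and fuse: Mymk, Mymx, Cdh15, Cdh2, Cdon, Boc, Neo1, Jam2, Jam3 and Adgrb3. They were taken by name, and a gene counted as bound when the authors' annotation gave it a peak in any of the 12 peak lists. By this rule 12 of 10303 peaks, in 9 separate regions, belonged to 4 of the 10 genes (Mymk, Cdon, Jam3 and Adgrb3), against 14.4% of all RefSeq protein-coding genes named at a peak. The other 6 genes counted as not bound, although peaks named for other genes lay inside Cdh15 and close to Mymx and Cdh2, and these are given as well.

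Muscle stem cells (MuSCs) rest beneath the sheath of the muscle fiber until injury, when they divide as myoblasts, align, and fuse into new fibers. Cadherins and junctional adhesion molecules hold the cells together, immunoglobulin-type receptors such as Cdon signal at these contacts, and myomaker (Mymk) with myomerger (Mymx) drive the merging of membranes. MyoD and MyoG are basic helix-loop-helix transcription factors of the muscle lineage that bind E-boxes, short DNA motifs of the form CANNTG, MyoD from early activation and MyoG mainly at differentiation.

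All mice were adult, labelled wild-type, and carried a mito-Dendra2 allele switched on by Pax7-Cre(ERT2), so the fluorescent protein marks cells that expressed Pax7 when tamoxifen was given (75 mg/kg a day for 5 days) and also their progeny. Activated MuSCs (ASCs) were CD34-, Dendra2+ and DAPI- cells of tibialis anterior muscle taken 2 days after injection of 50 µL of 1.2% BaCl2, which injures the fibers. Quiescent MuSCs (QSCs) were CD34+, Dendra2+ and DAPI- cells of the saline-injected muscle of the other leg, so the injury and the CD34 gate cannot be told apart. ChIP with anti-Myod or anti-Myog gave 3 libraries for each antibody and cell state, and 2 input libraries were not analysed here.

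The lists held 2262 to 2652 peaks in ASC MyoD, 605 to 916 in ASC MyoG, 139 to 174 in QSC MyoD and 120 to 167 in QSC MyoG libraries. A peak is a stretch with more ChIP reads than background, and its score is -10 × log10 of the p-value given by the peak caller MACS, with 50.0 as the lowest value listed. Sequencing depth is unknown, so the absence of a peak means only that none was listed, and shorter QSC lists and less binding in QSCs cannot be told apart. Peak lists do not measure expression, so the sorted cells could not be checked by marker levels. Among muscle stem cell genes, Pax7 had 1 ASC MyoD peak and Myf5 and Cd34 had none, while of 5 genes of other cells Pecam1, an endothelial gene, had 5 ASC MyoD peaks, Pdgfra had 1, and Ptprc, Adgre1 and Ly6a had none.

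MyoD peaks at these genes were found in ASCs. Mymk, Cdon and Jam3 each had an ASC-specific MyoD region, meaning that after merging overlapping peaks 2 or more of the 3 ASC libraries held one there and no QSC library did. This makes 3 of 10 genes, against 5.92% of protein-coding genes, and 11.4% of protein-coding genes were named at any MyoD peak. Without ASC MyoD replicate 1 the count was 0, without replicate 2 it was 1 (Jam3) and without replicate 3 it was 2 (Cdon and Mymk), since both remaining libraries then had to hold a peak. The shares of all genes without a replicate were not computed. Counted by position, with regions inside a gene or within 10 kb of it, 4 of 10 genes had an ASC-specific MyoD region (Mymk, Mymx, Cdh15 and Jam3), against 6.43% of protein-coding genes. No gene of the 10 had an ASC-specific MyoG region (0.187% of protein-coding genes did), a QSC-specific MyoD region (0.0548%) or a QSC-specific MyoG region (0.00914%). The same held by position within 10 kb, with backgrounds of 0.228%, 0.0777% and 0.00914%. No QSC MyoD library had a peak named for any of the 10 genes or within 10 kb of one. These lists held only 139 to 174 peaks each, and the share of all protein-coding genes with any QSC MyoD peak was not computed.

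**Figure D1:**
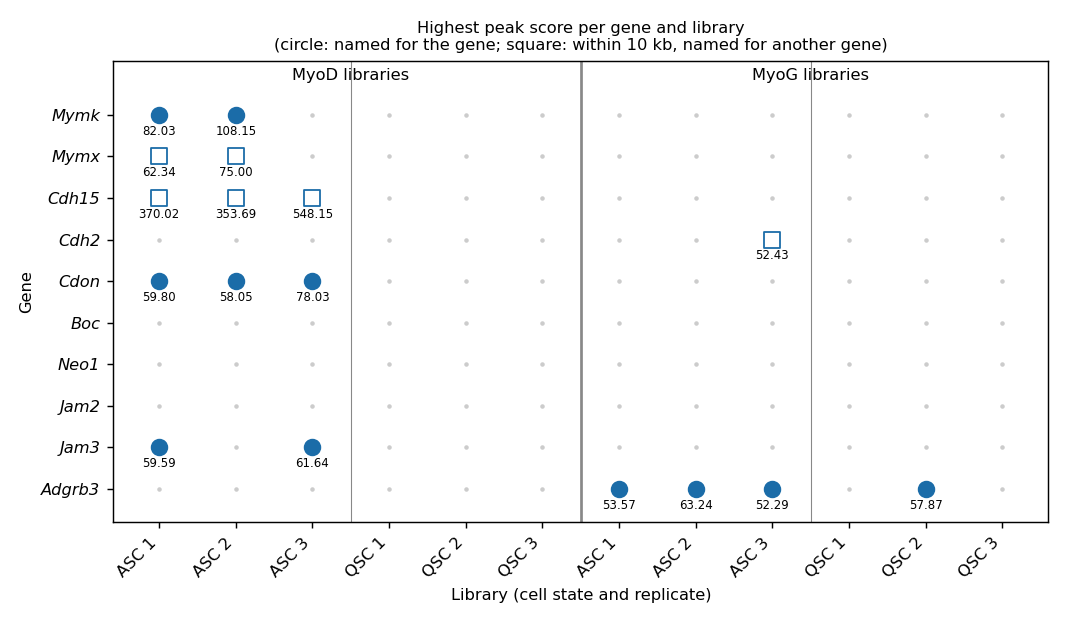
Each row is a gene and each column a library (cell state and replicate, MyoD left, MyoG right); the number is the highest peak score, a filled circle marks a peak named for the gene, an open square a peak within 10 kb named for another gene, and a small dot no peak. MyoD marks stand in the ASC columns alone, for 5 genes, and the Cdh15 scores of 353.69 to 548.15 are the highest shown.

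Myomaker, the fusion protein of the myoblast surface, had 1 MyoD region (Mymk, ENSMUSG00000009214, chr2:27069396-27070345, mm10). The authors' annotation placed it in the promoter class 1 to 2 kb from a transcription start, and it lay inside the RefSeq gene span, 1.82 kb from the upper end. Its score was 82.03 in ASC MyoD replicate 1 and 108.15 in replicate 2, with no peak in replicate 3 or in any QSC library (mean 95.1 ± 18.5, SD, n = 2). These scores stood at the 57.6th and 78.7th percentile of their lists, and the second was the highest percentile among the 8 MyoD peaks named for any of the 10 genes. Mymk was also the only 1 of the 10 genes that kept a named ASC-specific region when peaks were required to score at least 80. The share of all genes that did so was not computed.

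Myomerger, the small membrane protein that acts after myomaker, had no peak under its own name. A MyoD region that the annotation gave to the promoter of Slc29a1, a nucleoside transporter gene, lay 1.02 kb below the lower end of Mymx (chr17:45599180-45599944). It had a peak in ASC MyoD replicate 1 (score 62.34) and replicate 2 (75.00), and in neither replicate 3 nor QSCs. The upper end of Slc29a1 falls inside this region, whereas the Mymx span begins 1.02 kb above it. The same replicates, 1 and 2, held the peaks at Mymk, near Mymx and at the first Cdon region described below.

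M-cadherin (Cdh15), a cadherin of MuSCs and myoblasts, had the highest MyoD scores near any of the 10 genes, yet no peak bore its name. A region beginning 1.92 kb inside the gene (chr8:122850294-122852459) had peaks in all 3 ASC MyoD libraries, with highest scores of 370.02, 353.69 and 548.15 (mean 424 ± 108, SD, n = 3). These were the 31st of 2652, 16th of 2262 and 4th of 2296 peaks in their lists, and by mean score the region was 7th of 1976 ASC-specific MyoD regions. Replicates 2 and 3 listed a separate, lower-scoring peak at its far end, with scores of 77.77 and 68.84, where replicate 1 had a single peak of 2020 bp.

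A nearer Cdh15 region, 533 bp to 1589 bp after the transcription start (chr8:122848907-122849963), was also found in all 3 ASC libraries, at scores of 85.85, 58.21 and 52.98 (mean 65.7 ± 17.7, SD, n = 3). No QSC MyoD library and no MyoG library had a peak in either region, and the nearest MyoG peak of any library was about 1520 kb away. Of the 8 MyoD regions at or near the 10 genes these 2 were the ones present in all ASC and no QSC libraries, a pattern shown by 24.5% of the 4488 MyoD regions. By an exact two-sided permutation test p was 0.1 for each, the smallest that 3 libraries against 3 allow, and 0.404 after Benjamini-Hochberg adjustment over all MyoD regions, so neither passed 0.05. No MyoD or MyoG region in the whole data set could by this test, for the same reason. The paper, by its own analysis, reports MyoD and MyoG binding specific to ASCs at FDR < 0.05, which was not repeated here.

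**Figure D2:**
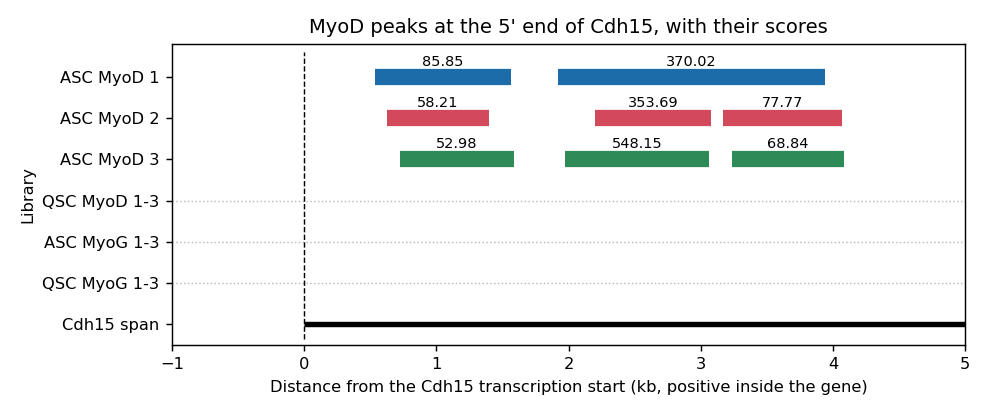
Horizontal bars are peaks in each library, placed by distance from the Cdh15 transcription start in kb, with the peak score above each bar; the black line is the gene, which runs on to the right. All bars lie in the 3 ASC MyoD rows, and the bars with scores of 353.69 to 548.15 overlap in all 3.

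The annotation named both Cdh15 regions Galnt2l (ENSMUSG00000092329). It classed the peaks of the nearer region and the high-scoring peaks of the inner one as promoter. The lower-scoring peaks at the far end of the inner region were classed as intron 1 of 15 of Galnt2l. In all, 45 peaks, every one in ASC MyoD libraries, carried that name, over a stretch of chromosome 8 from 120004243 to 123908093, and they formed 22 regions, 2 of them inside Cdh15. Galnt2l had no entry in the RefSeq table used here. Other regions of this stretch were found in all 3 ASC libraries too, among them a region 196 kb before Cdh15 (chr8:122651033-122652258), with scores of 168.6, 155.75 and 171.04.

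The sequence before the Cdh15 start is shown because the regions with the highest scores follow it in the same gene. The Cdon sequence is shown because that gene had MyoD peaks only at a distance from the start used here. Both are the 250 bases before the start on the plus strand, from RefSeq (GRCm38.p6, the assembly of mm10), with E-boxes (CANNTG, which reads the same on both strands) in capitals. The Cdh15 bases are chr8:122848124-122848373 and those of Cdon are chr9:35451826-35452075. The Cdon start used here lies inside the RefSeq span of the gene (chr9:35421528-35507652), so its bases are not those before the beginning of the span.
Cdh15: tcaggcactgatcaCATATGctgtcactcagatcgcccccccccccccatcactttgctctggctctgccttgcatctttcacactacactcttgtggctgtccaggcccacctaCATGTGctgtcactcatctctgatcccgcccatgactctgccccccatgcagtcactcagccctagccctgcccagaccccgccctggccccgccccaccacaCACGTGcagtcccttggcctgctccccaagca
Cdon: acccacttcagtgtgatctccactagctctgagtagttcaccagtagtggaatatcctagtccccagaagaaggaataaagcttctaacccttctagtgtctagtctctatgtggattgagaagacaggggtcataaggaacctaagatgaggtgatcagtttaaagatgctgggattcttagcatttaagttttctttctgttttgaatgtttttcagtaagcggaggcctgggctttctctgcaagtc

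Cdh15 held 3 E-boxes in these bases, a CATATG that begins 236 bases before the start, a CATGTG at 135 bases and a CACGTG at 32 bases. Another E-box, CACTTG, crosses the start. None was CAGCTG, and none was CAGGTG or its reverse complement CACCTG. Cdon held no E-box in the window of 300 bases around the inner start described above (250 before and 50 after it). The bases before the Cdon span were not searched. Neo1 held none in its own window either, and Adgrb3 held 2 (CATCTG and CACTTG). Of the 32851 windows in the table, 72.3% held CANNTG, 16.3% CAGCTG, and 20.2% CAGGTG or CACCTG. The first Cdh15 region began 484 bp past the end of its window, so the peaks do not cover these bases, and the sequences under the peaks were not analysed here. Mymk, Mymx, Cdh2, Boc, Jam2 and Jam3 were the 6 genes with no entry in that table.

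N-cadherin (Cdh2), a cadherin shared with neural and cardiac cells, had no peak under its name. A MyoG peak named for Gm15328 lay 8.95 kb above the gene (chr18:16818197-16818758) in ASC MyoG replicate 3 alone, with a score of 52.43. No MyoD library had a peak within 10 kb of Cdh2, whereas Cdh15 had peaks in 3 of 3 ASC MyoD libraries.

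Cdon, a co-receptor that binds cadherins and Sonic hedgehog at the myoblast surface, had 2 MyoD regions (ENSMUSG00000038119), both annotated as distal intergenic. The first (chr9:35368794-35369641) lay 51.9 kb before the RefSeq gene span and spanned -83.3 to -82.4 kb from the start that the sequence above precedes. It was found in ASC MyoD replicate 1 (score 59.80) and replicate 2 (58.05), both near the 25th percentile of their lists (24.9 and 25.1). The second (chr9:35508073-35508666) lay 0.421 kb past the far end of the gene and was found in replicate 3 alone, with a score of 78.03. All 3 ASC MyoD libraries thus had a peak named for Cdon, but not at the same place.

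Boc, the nearest relative of Cdon, and neogenin (Neo1), a receptor for netrins and repulsive guidance molecules, had no peak in any of the 12 libraries, by name or within 10 kb. Of these 3 related receptors Cdon was the one with peaks.

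Jam3, a junctional adhesion molecule, had 2 MyoD regions (ENSMUSG00000031990). One lay in intron 1 of 8 (chr9:27109791-27110558) and had a peak in ASC MyoD replicate 1 (score 59.59) and replicate 3 (59.08), at the 24.5th and 31.1th percentile. The other was distal intergenic, 18.5 kb above the gene (chr9:27173966-27174618), and had a peak in replicate 3 alone, with a score of 61.64. Jam2, which binds Jam3 on the neighboring cell, had no peak in any library, by name or within 10 kb.

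Of the 5 MyoD regions named for Mymk, Cdon and Jam3, 3 were ASC-specific, against 44.0% of all 4488 MyoD regions, and 2 had a peak in 1 library, against 54.8%. None was QSC-specific, against 0.780%. Each of the 3 was found in 2 of 3 ASC libraries, for which the same exact permutation test gave p = 0.4 (adjusted 0.89), and each region of a single library had 1.0. Of the 8 peaks in them, 5 scored below the 50th percentile of their list. None of the 8 MyoD regions at or near the 10 genes overlapped a MyoG peak, and the nearest lay 62.7 kb away, from the distal Cdon region. The share of all 4488 MyoD regions that overlap a MyoG peak was not computed, so this absence cannot be read as particular to these genes.

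**Figure D3:**
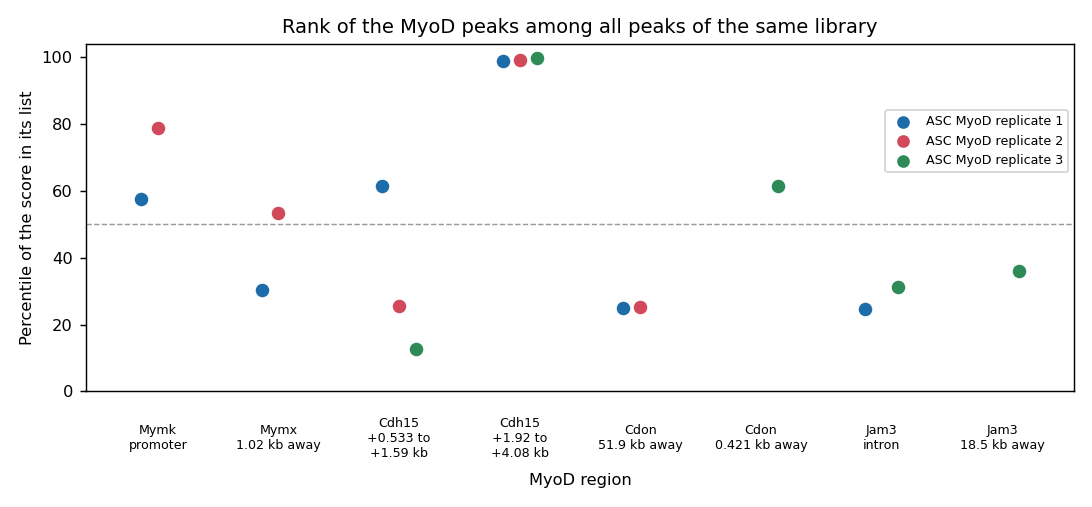
Each point is the highest MyoD peak of a region in an ASC library, placed by the percentile of its score among all peaks of that library (y axis); the dashed line is the 50th percentile, and distances are from the transcription start for Cdh15 and from the gene for the others. The inner Cdh15 region is at the 98.9th to 99.9th percentile in all 3 libraries, whereas the Jam3 points lie between 24.5 and 36.1.

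Adgrb3, an adhesion G protein-coupled receptor that signals through Elmo proteins in fusion, was the 1 gene of the 10 with named MyoG peaks, and it had no MyoD peak. There were 4 peaks (ENSMUSG00000033569), each in 1 library and at its own place. In ASCs, replicate 1 had a distal intergenic peak 87.6 kb below the gene (chr1:24979134-24979832, score 53.57), replicate 2 a peak in exon 12 of 12 of a transcript (chr1:25092402-25092897, score 63.24) and replicate 3 a peak in intron 6 of 28 (chr1:25519673-25520272, score 52.29). In QSCs, replicate 2 had a peak in exon 14 of 16 of another transcript (chr1:25083817-25084524, score 57.87).

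Adgrb3 thus had a MyoG peak in 3 of 3 ASC and 1 of 3 QSC libraries but no place with a peak in more than 1. Regions of a single library made up 89.7% of the 2198 MyoG regions, whereas 9.42% were ASC-specific, 3.82% had a peak in all 3 ASC and no QSC libraries, and 0.136% were QSC-specific. The gene is 767 kb long, and of the 227 protein-coding genes of at least 500 kb, 46.7% were named at a MyoG peak, against 4.34% of all protein-coding genes. Of the same long genes 49.3% were named at a MyoD peak, which Adgrb3 was not. All 4 peaks lay over 300 kb from the Adgrb3 start, the nearest at 309 kb.

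A wider list of 84 genes of myoblast adhesion and fusion was examined in the same way. Of these, 26 had a named peak (against 14.4% of protein-coding genes) and 15 had an ASC-specific MyoD region (17.9%, against 5.92%). None had an ASC-specific MyoG region, against 0.187% of protein-coding genes, and none had a peak of the same region in 2 QSC libraries. Of protein-coding genes, 0.0548% were named at a QSC-specific MyoD region and 0.00914% at a QSC-specific MyoG region. By position within 10 kb, 14 of 84 had an ASC-specific MyoD region, against 6.43% of protein-coding genes, and among these Cdh13, Ncam1 and Ntn1 were found by position alone. For the other 11 genes with named peaks, each named region held a peak in a single library. Of the 21 ASC-specific MyoD regions in the wider list, 12 were annotated as distal intergenic, among them the 5 named for Cdh5. The distal intergenic share of all 1976 ASC-specific MyoD regions was not computed. The background shares were not matched for gene length. Of protein-coding genes of at least 500 kb, 49.3% were named at a MyoD peak, against 11.4% of all.

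**Figure D4:**
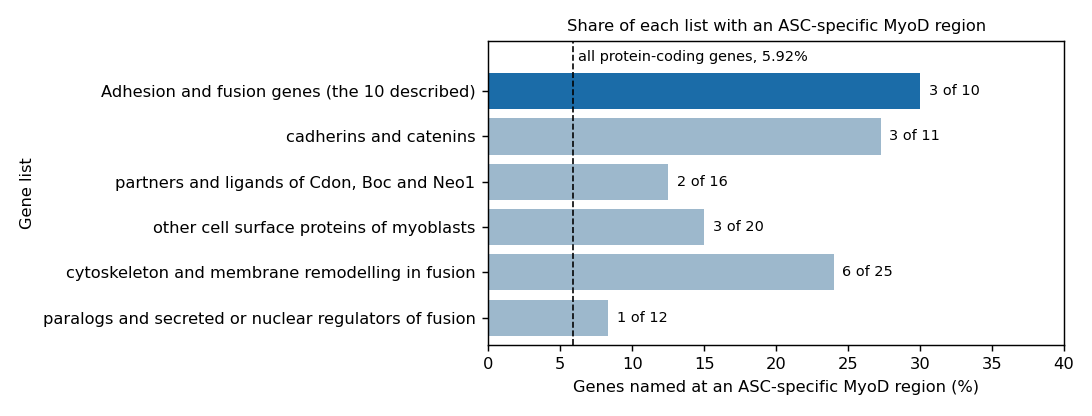
Bars give the percent of each gene list named at an ASC-specific MyoD region (x axis), with the count beside each bar; the dashed line is the 5.92% of all RefSeq protein-coding genes. The shares run from 1 of 12 to 3 of 10.

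Among cadherins and catenins, 3 of 11 genes were so named. Ctnnd1, which encodes the p120 catenin that holds cadherins at the membrane, had a region in the promoter class 2 to 3 kb from a start in all 3 ASC MyoD libraries (chr2:84634613-84635514, mean score 84.6 ± 14.1, SD, n = 3). Cdh3 had an intronic region in 2 libraries (mean score 63.7 ± 8.32, n = 2). Cdh5, the endothelial cadherin, was named at 5 ASC-specific regions, all 350.0 to 606 kb from the gene.

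Among partners and ligands of Cdon, Boc and Neo1, 2 of 16 genes were named. Gas1, a hedgehog co-receptor that works with Cdon and Boc, had a distal region in 3 libraries (chr13:60012183-60013173, mean score 75.3 ± 12.1, SD, n = 3), 161 kb from the gene. Rgmb, a repulsive guidance molecule that binds Neo1, had a region over exon 3 of 3 and its 3′ UTR in 3 libraries (chr17:15806924-15807985, mean score 57.0 ± 6.03, n = 3).

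Among other surface proteins, 3 of 20 genes were named. Itga7, the laminin-binding integrin of muscle, had a region over an intron and an exon in 3 libraries (chr10:128937351-128939097), with scores of 261.62, 162.65 and 334.88 and the highest mean of the 21 ASC-specific regions in the wider list (253 ± 86.4, SD, n = 3). Tjp1, which encodes the junction protein ZO-1, had 3 ASC-specific regions, all annotated as distal intergenic. The highest mean score among them was 94.4 ± 17.3 (n = 3), for a region inside the RefSeq span. Kirrel3 shared its region in 2 libraries (mean score 108 ± 11.8, n = 2) with St3gal4, since the annotation named the peaks of this region for different genes.

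Among genes of the cytoskeleton and membrane in fusion, 6 of 25 were named. Elmo1, an adaptor that binds Adgrb3 and the Rac activator Dock1, had an intronic MyoD region in 3 libraries (chr13:20206789-20207891, scores 147.32, 77.63 and 126.74). A MyoG peak of ASC replicate 3 (score 52.24) lay inside that region. Dock1 had a distal region in 2 libraries (mean score 76.3 ± 31.9, n = 2), 120.0 kb from the gene. Bin3 had an intronic region in 3 libraries (mean score 61.6 ± 7.96, n = 3), and regions of 2 libraries were named for Myof (promoter, 71.4 ± 15.6), Ehd2 (intron, 74.7 ± 7.39) and Anxa5 (distal, 67.0 ± 12.5). Of 12 paralogs and regulators, Mrtfa alone was named, at an intronic region in 2 libraries (mean score 72.0 ± 24.9, n = 2).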

How the data were processed

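Per the labels, cells were fixed in 1% formaldehyde for 10 minutes and chromatin was sheared to about 500 bp. The deposited lists hold 1 set of MACS peaks per library, each with a score and with the gene and gene feature the authors assigned. Per the file headers the score is -10 × log10 of the MACS p-value, and the lowest, 50.0, is a p-value of 1e-05. The submitters' processing notes name BWA 0.7.5, MACS, deepTools 3.5.0 and the build mm10, without roles, and the use of the inputs and any filter on peaks are not given in the sources used here. The lists carry no read counts, so depth is unknown and no counting interval is given.

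Peaks of the 6 libraries of an antibody were merged into regions where they overlapped by at least 1 bp (Python 3.11.15, pandas 2.3.3). Scores depend on depth and describe the calls, not binding strength, so each was also ranked within its list. Gene spans came from RefSeq (GRCm38.p6), whose symbols matched 93.5% of the 4384 gene names in the lists, and background shares use its 21887 protein-coding genes. For each region the share of libraries with a peak was compared between ASCs and QSCs by an exact two-sided permutation test (20 relabelings), with Benjamini-Hochberg adjustment over all regions of the antibody. The code was tested on simulated peak lists. No pair of lists shared a peak with identical ends. The labels do not say whether replicates came from separate animals. The paper describes 3 biological replicates per ChIP-seq data set. Without animal identities in the labels, how much of the spread lies between animals is unknown.

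The 10 genes, the wider list and the call rule were chosen with earlier results of these data known. All 10 genes were described, and genes of the wider list were named when they had a region in at least 2 libraries of a group, with values for those named by the annotation. No genome sequence was used, so the planned count of the motif CAGCTG in regions was not run. Alternatives were a score of at least 80, reciprocal overlap of 50%, merging across gaps of 500 bp or less, detection in all 3 or at least 1 library, regions over all 12 libraries, assignment by position, replicate pairing, and leaving out each library.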

Additional observations from a re-analysis of the deposited data

How the results depend on the processing

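The count of 3 genes with an ASC-specific MyoD region was 1 (Mymk) at a score of at least 80 and 0 with a peak required in all 3 libraries. Of all MyoD regions, 24.5% had a peak in all 3 ASC and no QSC libraries, against 44.0% by the main rule. Shares of all genes were computed only for the main rule and by position within 10 kb, so the other counts have no background. The count of genes ranged from 0 to 3 when a library was left out. It was 3 with reciprocal overlap of 50%, merging across gaps of 500 bp or less, detection in at least 1 library, or regions over all 12 libraries, and 4 by position within 10 kb. By position within the gene span and within 50 kb, chosen after seeing the data, it was 3 (Cdh15, Jam3 and Mymk) and 4. The counts for ASC-specific and QSC-specific MyoG regions were each 1 instead of 0 (Adgrb3 in both) when a single library was enough, and 0 under the other alternatives run. The QSC-specific MyoD count was 0 under all alternatives run. The motif count in regions was not run, because no genome sequence was used. Each of the 13 regions at or near the 10 genes had peaks in ASCs only or in QSCs only. A stricter score or a left-out library therefore could not change the sign of a difference. No sign changed under the other alternatives, and 10 regions had no peak left at a score of at least 80. The inner Cdh15 region had a peak in all 3 ASC MyoD libraries at that score, and the nearer one in replicate 1 alone.

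With the replicate number as a block, an exact sign-flip test gave p = 0.25 for either Cdh15 region, the smallest that 3 pairs allow. The calls do not use p-values, so this test could not change them. Presence of peaks in same-numbered libraries of different groups, as deviations from the group means over 6557 regions, had correlations from -0.0122 to 0.00667 over 18 pairs. Regions with a peak in a single library made up 54.8% of MyoD and 89.7% of MyoG regions, so these correlations cannot decide whether same-numbered libraries are paired. The labels do not say whether such libraries share animals, and the permutation test treated them as unpaired. The lowest permutation p-value over all alternatives was 0.1.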
